A study of Mus musculus with 34 samples.

Results

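Medial gastrocnemius of wild-type mice, a calf muscle of mainly fast fibres, was compared between 8 and 3 months of age. The members were the 10 wild-type gastrocnemius arrays of a series of 34, 5 at 8 months and 5 at 3 months, chosen by genotype, muscle and age in the sample labels. The series asked how muscle glycogen synthase, encoded by Gys1, affects transcripts of muscle and liver. The 3-month wild-type mice were the controls of a muscle glycogen synthase knockout (MGSKO, 3 gastrocnemius arrays), and the 8-month wild-type mice were the controls of GSL30 mice, which overexpress that enzyme (5 gastrocnemius arrays). Anterior tibialis (4 arrays) and liver (4 arrays) of 3-month wild-type mice serve here as reference tissues. No treatment was named for any group, both wild-type gastrocnemius groups carried no stated allele, and every muscle target was made from about 5 µg of total RNA. The mixed strain C57BL6/129SV is stated only for the tibialis samples. The 3-month and 8-month arrays carry different array codes and belong to controls of different lines, so age, array code and mouse line cannot be told apart, and the differences below describe these arrays. Nothing in the labels says that the arrays are separate animals, so the p-values measure the spread between these arrays, which may be technical.

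Whole skeletal muscle holds many cell types besides the multinucleate fibres. Fibroblasts make the collagen sheets between fibres and the tendon at the muscle's ends, endothelial cells and pericytes form the capillary bed, Schwann cells wrap the nerves, adipocytes lie between bundles, and macrophages and lymphocytes reside in or pass through the tissue. T and B lymphocytes are marked by the CD3 and CD79 signalling chains of their antigen receptors, and antigen-presenting cells by MHC class II. A transcript's level in total muscle RNA depends on how many such cells were present and on how much each made, and in bulk samples these cannot be told apart.

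Levels are deposited intensities on a linear scale, with each array scaled to a trimmed mean of about 1000. Differences are log2 values, 8 minus 3 months, of intensity plus 50, with the standard error (SE) from limma. A probe set was called where limma's p, adjusted by Benjamini-Hochberg over the 11669 probe sets tested, was under 0.05. Median intensity ran from 365 to 413 in the 3-month arrays and from 356 to 437 in the 8-month arrays, and correlations between arrays of the 10 ran from 0.874 to 0.980. The muscle label held, since all 17 skeletal muscle markers on the array, such as Ckm and Acta1, were bright enough to be tested. A feature of the arrays moved with age. Transcripts of hepatocytes, the main cells of liver, were present in the gastrocnemius arrays and were higher at 3 months.

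The hepatocyte score, the mean log2(intensity + 50) of 10 marker genes, was 14.04, 15.77, 12.89, 14.85 and 11.80 in 3-month replicates 1 to 5 and 9.30, 10.87, 9.20, 9.09 and 9.94 in 8-month replicates 1 to 5. The groups did not overlap, and the difference of -4.19 had an exact two-sided permutation p of 0.00794, the smallest that 252 arrangements can give. Wild-type tibialis scored 7.31 to 7.59 and wild-type liver 15.62 to 15.75. Over 472 probe sets bright in liver and at least 20-fold dimmer in tibialis, the median level was 3.03% to 26.9% of the liver level in 3-month arrays and 1.42% to 2.7% in 8-month arrays. The albumin transcript, Alb, ran from 19232 to 245380 at 3 months and from 2288 to 10030 at 8 months, beside 57277 to 66886 in liver. The value of 245380, in 3-month replicate 2, thus lay above every liver array. Because of these liver transcripts, 2856 probe sets over 2-fold brighter in liver than in tibialis were left out of the counts below, except where they are said to be kept. The 3-month replicate 2 stood apart in a further way. Its 10 brightest probe sets held 6.45% of its summed intensity, against 1.43% to 2.64% in the other 9 arrays, and without it the number of calls was 512 rather than 400.

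**Figure D1:**
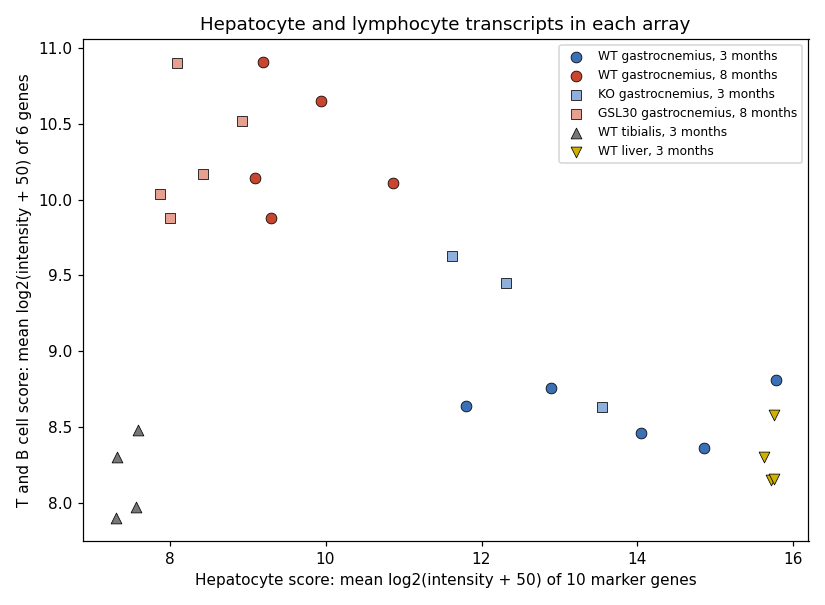
Hepatocyte score (horizontal axis, mean log2(intensity + 50) of 10 genes) against the T and B cell score (vertical axis, mean of 6 genes) for each array of 6 groups. Wild-type gastrocnemius at 8 months lies at T and B cell scores of 9.88 to 10.91 and at 3 months at 8.36 to 8.81, and the 2 groups are also separate on the hepatocyte axis.

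Transcripts that differed between the ages were mostly higher at 8 months. Of the 11669 probe sets tested, 400 were called (3.43%), 365 higher (3.13%) and 35 lower (0.3%). They covered 299 genes higher (4.1% of 7285 genes tested) and 33 genes lower (0.453%). The median rise among called probe sets was 0.80 and the median fall was -0.75. Among called probe sets 126 changed over 2-fold, of which 115 were higher. The 5 values of one age lay entirely above or below those of the other in 862 probe sets (7.39%), 772 of them higher at 8 months, and in 360 of the 400 called. All genes together had a median difference of 0.13, with 5224 of 7285 positive, and individual differences and counts of signs are to be read against that shift. The most affected groups were lymphocyte genes, MHC class II genes and collagens, and the contractile and energy genes of the muscle fibres held few calls.

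The number of calls fell in fits that took account of the hepatocyte score. With the score as a covariate, 1 probe set was called, 395 of the 400 kept their sign and 1580 had an unadjusted p under 0.05, against 2325 without the covariate. The arrays of highest score within each age were then left out (3-month replicates 1, 2 and 4 and 8-month replicates 2 and 5). In that fit 14 probe sets were called. All 400 kept their sign, but in 360 of them the ages did not overlap, so leaving out arrays could not turn those signs. The arrays kept still differed in score, at 12.89 and 11.80 in 3-month replicates 3 and 5 and 9.09 to 9.30 at 8 months. Leaving out only 3-month replicates 1, 2 and 4 gave 52. The score does not overlap between the ages, and fewer arrays give less precision. These counts therefore cannot show how far the calls depend on the score. When the liver-bright probe sets were kept, 840 were called, 489 higher (58.2%, against 91.2% without them) and 351 lower. The part of the liver transcripts in the differences below was not tested. The count of calls also fell to 194 without 3-month replicate 1, 185 without 3-month replicate 4, 252 without 8-month replicate 2 and 188 without 8-month replicate 3.

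**Figure D2:**
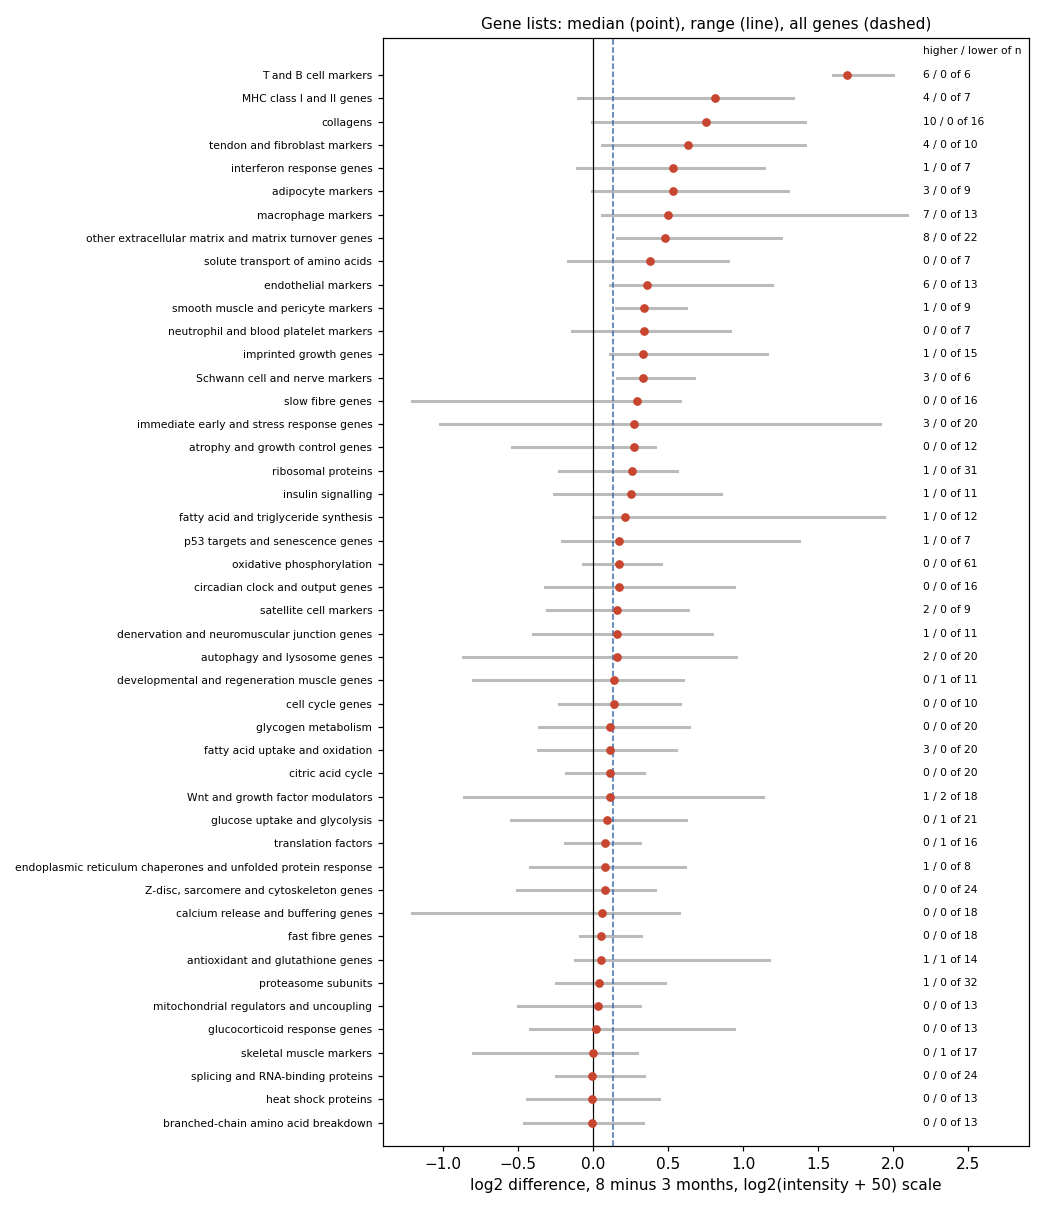
Median (point) and range (line) of the log2 difference, 8 minus 3 months, over the tested genes of each gene list with at least 6 tested genes, with the number called higher and lower. The T and B cell list stands highest, at a median of 1.69, and the dashed line marks the median of all genes, 0.13.

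Lymphocyte genes had the largest median difference of the gene lists with at least 6 tested genes. All 6 tested T and B cell markers were higher at 8 months, with a median difference of 1.69 against 0.13 for all genes tested, of which 4.1% were called higher. They were Cd79a and Cd79b, the signalling chains of the B cell receptor, Ms4a1 (CD20), Ighm (the IgM heavy chain), Jchain (the joining chain of secreted IgM and IgA) and Cd3g (a CD3 chain of the T cell receptor). Another 4 markers on the array were too dim to test and 1 was left out as liver-bright. Of the 6 tested, 2 had a 3-month mean under the limit of the dim filter, an intensity of 254, and so passed through their 8-month level. Over 10 markers without that filter the median was 1.64.

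Cd79b read 152, 321, 161, 168 and 184 in the 5 arrays at 3 months and 508, 943, 1415, 779 and 1193 at 8 months. The lowest 8-month array lay above the highest 3-month array, and the difference was 2.0 (SE 0.25, limma adjusted p = 0.00122). Cd79a read 382, 567, 250, 302 and 334 at 3 months and 992, 1247, 2241, 1199 and 1387 at 8 months, a difference of 1.80 (SE 0.23, adjusted p = 0.00127). In both genes 8-month replicate 3 was the brightest array and 3-month replicate 2 the brightest of its age. Cd3g read 86.7, 329, 103, 126 and 107 at 3 months and 493, 498, 757, 545 and 555 at 8 months, with a difference of 1.72 (SE 0.25, adjusted p = 0.00289). Ms4a1 ran from 206 to 419 at 3 months and from 687.5 to 2161 at 8 months (1.60, SE 0.27, adjusted p = 0.00767). Cd3d, another CD3 chain, fell under the dim filter and was not tested. Its intensity was 27.3, 46.5, 9, 30.2 and 17.6 at 3 months and 331, 471.5, 1409, 561 and 1021 at 8 months, so it stood near the tibialis level of 23.25 ± 3.76 (SD, n = 4) at 3 months and far above it at 8 months.

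Ighm shows a limit of single probe sets. Of its 6 tested probe sets, 2 were called, at 1.66 (SE 0.29, adjusted p = 0.0087) and 1.51 (SE 0.26, adjusted p = 0.00876), and the other 4 differed by 0.01 to 0.51 without passing. Jchain was called at 1.61 (SE 0.39, adjusted p = 0.0413), but its groups overlapped, with 131 to 586 at 3 months and 567 to 1905 at 8 months. Immunoglobulin and T cell receptor segments are near-identical families, so the member read by such a probe set is uncertain.

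Leukocyte genes outside the list were among the 10 largest rises. Ptprc, which encodes the CD45 phosphatase carried by all leukocytes, read 442, 267, 369, 453 and 528 at 3 months and 1608, 1608, 2631, 1646 and 2071 at 8 months. Its difference was 2.09 (SE 0.19, adjusted p = 0.000152), and the groups were well apart. Coro1a, an actin-binding coronin of leukocytes, went from a mean of 410 ± 99.2 to 2007 ± 573 (SD, n = 5 each), a difference of 2.15 (SE 0.19, adjusted p = 0.000152). Cd52, a surface glycopeptide of lymphocytes, rose by 2.15 (SE 0.26, adjusted p = 0.000947) and Trbv1, a T cell receptor beta segment, by 2.10 (SE 0.25, adjusted p = 0.000882). Cd209b, a lectin of specialised macrophages, had 3-month values of 284, 38.6, 58, 117 and 49.4 and 8-month values of 715, 987, 1485, 848 and 727. It rose by 2.79 (SE 0.33, adjusted p = 0.000891), and tibialis read 39.05 ± 6.27 (SD, n = 4). Cklf, a chemokine-like factor, rose by 2.33 (SE 0.54, adjusted p = 0.036), but 3-month replicates 1 and 4 read 637 and 514 while the other 3 read 33.3 to 63.1, and it was called in only 3 of the 10 fits that left out 1 array. Stk10, a serine/threonine kinase, stayed at 107 to 123 in all 3-month arrays and read 1055, 225, 782, 899 and 1026 at 8 months (2.18, SE 0.31, adjusted p = 0.00317). Cd209b, Trbv1 and Stk10 had 3-month means of 109, 131 and 118.5, under the dim filter's limit of 254. They thus passed through their 8-month level. Their calls held without that filter, and the call of Cklf was lost.

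**Figure D3:**
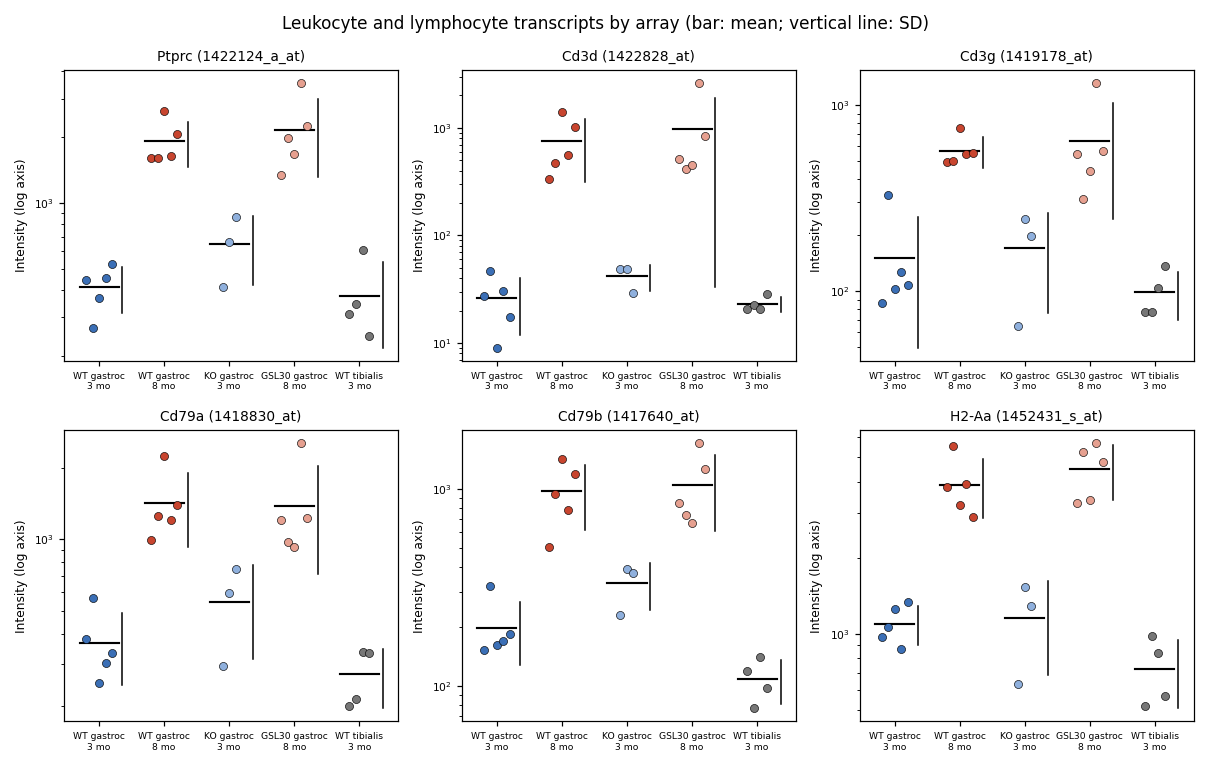
Intensity on a log axis of 6 leukocyte transcripts in each gastrocnemius array and in wild-type tibialis, with bars at the mean and vertical lines for the SD. For Ptprc, the 8-month wild-type arrays lie at 1608 to 2631 and the 3-month wild-type arrays at 267 to 528, and the GSL30 arrays at 8 months lie beside the former.

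The T and B cell list had a median of 1.70 without the arrays of high hepatocyte score, with 1 gene called, and 1.95 with the hepatocyte score as a covariate, with none called. For Cd79b the covariate fit gave 2.55 (adjusted p = 0.144), for Ptprc 1.5 (0.191) and for Cd52 1.88 (0.238). The T and B cell score of wild-type liver was 8.15 to 8.58, close to the 8.36 to 8.81 of the 3-month gastrocnemius arrays and under the 9.88 to 10.91 of the 8-month arrays. Cd79b, Cd79a, Ptprc, Coro1a, Cd52, Trbv1, Cd209b and Stk10 were called in all 10 fits that left out 1 array.

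MHC class II genes, which present antigen to T cells, rose with the lymphocyte genes. Of 7 tested MHC class I and II genes, 4 were higher (Cd74, H2-Aa, H2-DMa and H2-Eb1) and none lower, against 4.1% of all genes called higher. Their median difference was 0.81. H2-Aa, the class II alpha chain, read 968, 1067, 1249, 870 and 1338.5 at 3 months and 3795, 5540, 3227, 3928 and 2911 at 8 months. The ages did not overlap, and the difference was 1.76 (SE 0.18, adjusted p = 0.000284). Cd74, the invariant chain that guides class II molecules, went from 4746 ± 497 to 12180 ± 2588 (SD, n = 5 each), a rise of 1.33 (SE 0.15, adjusted p = 0.000751). H2-Eb1 rose by 1.19 (SE 0.15, adjusted p = 0.00129). H2-Ab1 did not pass with any of its 3 tested probe sets (0.07 to 0.64), and all 4 probe sets of the class I gene H2-K1 were left out as liver-bright. H2-Aa was the only MHC gene among the 5 named genes still called without the arrays of high hepatocyte score (1.46, adjusted p = 0.0238).

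Of 13 tested macrophage markers, 7 were higher and none lower, with a median of 0.50, against 4.1% of all genes called higher. One of the 7 was Ptprc, which other leukocytes also carry. Lyz2 (lysozyme) lay between 3862 and 6917 at 3 months and between 8769 and 11372 at 8 months (0.96, SE 0.16, adjusted p = 0.00723). Ctss, the lysosomal protease cathepsin S, rose by 0.95 (SE 0.15, adjusted p = 0.00504) and Csf1r, the receptor for colony-stimulating factor 1, by 0.68 (SE 0.14, adjusted p = 0.0176) with 1 of its 3 probe sets. Cd68, Mrc1 and Tyrobp also passed. Adgre1 (F4/80), a defining macrophage marker, differed by 0.12 (SE 0.13) and Cd163 by 0.06 (SE 0.19), and neither was called. None of 7 neutrophil and blood platelet markers was called by limma (median 0.34, with 1 at an unadjusted p under 0.05), nor either of 2 erythrocyte markers (median -0.30, with 0 at that p). Psmb8, a subunit of the immunoproteasome, was the only 1 of 7 tested interferon response genes called, at 1.14 (SE 0.17, adjusted p = 0.00343). The 7 had a median of 0.53, against 0.13 for all genes, and 6 were positive. Of 21 such genes on the array, 10 were left out as liver-bright and 4 as too dim, so most were not tested.

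Collagens formed the second group. Of 16 tested, 10 were higher at 8 months and none lower, with a median of 0.75 against 0.13 for all genes. Among all genes tested, 4.1% were called higher. The fibrillar chains Col1a1, Col1a2, Col3a1 and Col5a2, which build tendon and the sheaths of muscle, differed by 1.41, 1.21, 1.28 and 1.03. The microfibrillar chains Col6a1, Col6a2 and Col6a3 differed by 0.99, 0.90 and 1.07, the basement membrane chains Col4a1 and Col4a2 by 0.69 and 0.59, and Col15a1, also of basement membranes, by 0.82. Col5a1, Col5a3, Col14a1, Col4a3, Col8a1 and Col16a1 did not pass.

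The promoters of fibrillar collagen and B cell receptor genes are shown for the members these results turn on. Each run is the 250 bases upstream of the gene start in RefSeq (build GRCm38.p6), read 5′ to 3′ on the gene's strand. Capitals mark a CCAAT box (CCAAT) or an octamer (ATGCAAAT), each searched on both strands. These are the motifs known from collagen and immunoglobulin promoters, and no overlap between them occurs in the runs printed. Col1a2 lies on the plus strand at chr6:4505368-4505617, Col3a1 on the plus strand at chr1:45311288-45311537, and Cd79a on the plus strand at chr7:24897247-24897496.
Col1a2: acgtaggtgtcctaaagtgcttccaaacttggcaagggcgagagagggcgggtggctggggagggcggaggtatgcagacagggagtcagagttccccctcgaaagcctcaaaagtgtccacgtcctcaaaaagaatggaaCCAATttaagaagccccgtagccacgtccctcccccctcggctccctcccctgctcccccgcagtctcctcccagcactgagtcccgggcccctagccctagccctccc
Col3a1: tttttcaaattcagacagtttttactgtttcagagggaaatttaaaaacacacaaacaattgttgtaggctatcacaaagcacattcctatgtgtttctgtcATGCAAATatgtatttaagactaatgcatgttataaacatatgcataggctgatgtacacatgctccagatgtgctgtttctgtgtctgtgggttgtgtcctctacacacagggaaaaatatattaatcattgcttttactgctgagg
Cd79a: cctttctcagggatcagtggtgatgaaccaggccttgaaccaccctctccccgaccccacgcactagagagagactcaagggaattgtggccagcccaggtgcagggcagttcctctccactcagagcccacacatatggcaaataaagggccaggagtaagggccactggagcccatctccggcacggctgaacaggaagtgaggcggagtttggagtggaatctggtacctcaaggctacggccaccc
In Col1a2 the CCAAT letters begin 109 bases before the start, and in Col3a1 the octamer letters begin 148 bases before it. Of the 10 called collagens, 8 had an entry, and 3 of these held CCAAT and 1 the octamer. Of 32851 promoters of this length, 33.8% held CCAAT and 1.6% held the octamer. Of the 6 called lymphocyte markers, 3 had an entry (Cd3g, Cd79a and Jchain), and neither set of letters is in those windows.

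Col1a2, whose promoter is printed above, read 5250, 5046, 6615, 5322 and 5514 at 3 months and 11853, 16787, 15778, 8127 and 13886 at 8 months. The 3-month arrays were tightly grouped, and 8-month replicate 4 was the lowest of its age. The difference was 1.21 (SE 0.18, adjusted p = 0.00413), and the gene's other probe set gave 1.42 (SE 0.28, adjusted p = 0.0167). Col3a1 read 275.5, 301, 248, 219.5 and 268 at 3 months and 706, 914, 1024, 391 and 669 at 8 months (1.28, SE 0.21, adjusted p = 0.00578). Its second and brighter probe set gave 1.29 (SE 0.22, adjusted p = 0.00876). Col1a1 read 1674, 731, 2042, 1438 and 1691 at 3 months and 3309, 6570, 6106, 2888 and 2352.5 at 8 months (1.41, SE 0.32, adjusted p = 0.0302), while its other probe set, at 1.47 (SE 0.41, adjusted p = 0.0736), did not pass.

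Collagen levels at 8 months were nearer to those of tibialis than at 3 months. Of the 16 tested collagens, 12 had every 3-month gastrocnemius array below every tibialis array of the same age, and none did at 8 months. Over all 7285 genes those counts were 1256 and 927. Col1a2 in tibialis was 13900 ± 3573 (SD, n = 4), beside 5550 ± 619 in gastrocnemius at 3 months and 13290 ± 3446 at 8 months (SD, n = 5 each). Without the arrays of highest hepatocyte score within each age collagens had a median of 0.52, and with the score as a covariate 0.54. No collagen was called in either fit.

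**Figure D4:**
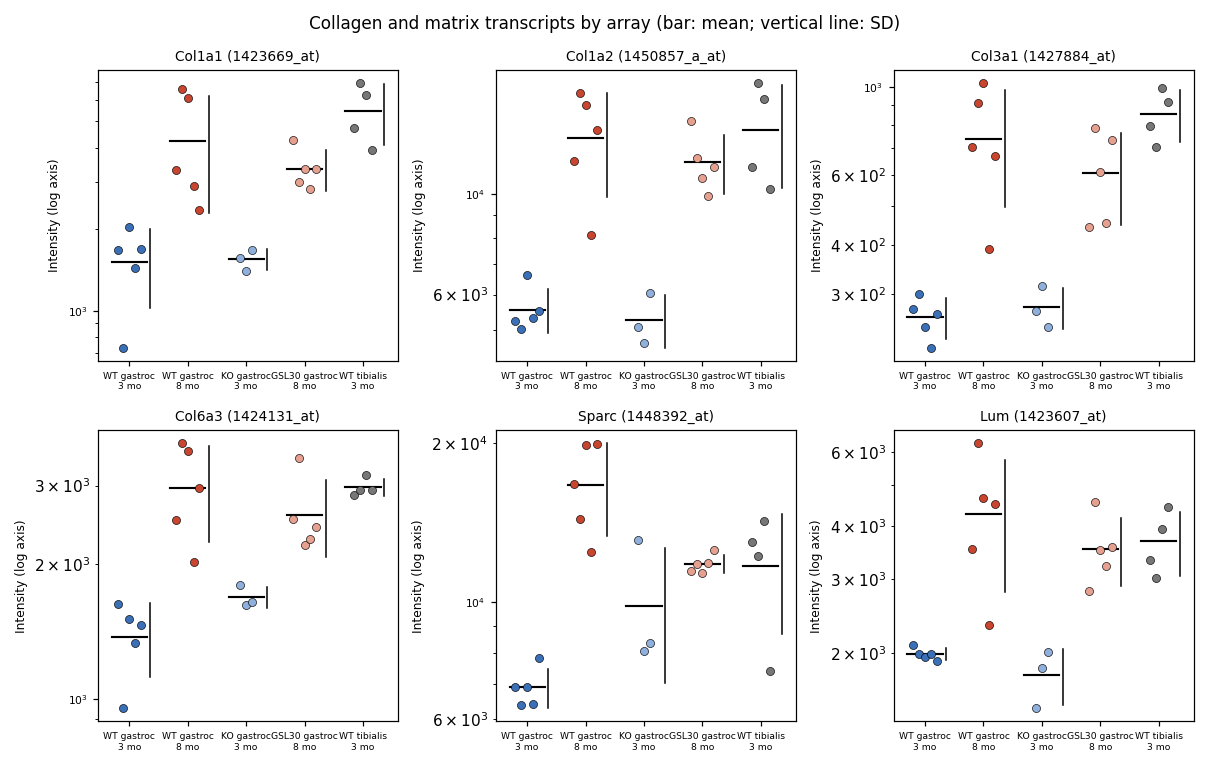
Intensity on a log axis of 4 collagens, Sparc and Lum in each gastrocnemius array and in wild-type tibialis, with bars at the mean and vertical lines for the SD. For Col1a2 the 3-month wild-type arrays lie at 5046 to 6615 and the 8-month wild-type arrays at 8127 to 16787.

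Of 22 tested matrix genes other than collagens, 8 were higher and none lower (median 0.48), against 4.1% of all genes called higher. Sparc, a collagen-binding protein of connective tissue, read 6911, 6373, 6890, 6400 and 7845.5 at 3 months and 16789, 14405, 19893, 12427 and 19969 at 8 months. The gap between the ages was wide beside the spread within either, and the difference was 1.25 (SE 0.15, adjusted p = 0.000907). Postn (periostin), Mmp2 (gelatinase A) and Lum (lumican) rose by 1.14, 1.05 and 1.01, and Fmod (fibromodulin) by 0.84 (SE 0.12, adjusted p = 0.00334). Bgn, Pcolce and Timp3 were the others called. Among 10 tested tendon and fibroblast markers 4 were higher (Col1a1, Comp, Dpt and Fmod), with a median of 0.63. Comp, a tendon and cartilage matrix protein, went from 750 ± 78.0 to 1261 ± 188 (SD, n = 5 each; 0.71, SE 0.13, adjusted p = 0.0114). Col1a2, Col3a1, Sparc, Fmod and Comp were called in all 10 fits that left out 1 array.

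Of 13 tested endothelial markers, 6 were higher in the 8-month wild-type arrays and none lower (median 0.36), against 4.1% of all genes called higher. Cdh5, the adhesion molecule VE-cadherin, read 1714, 784, 1579.5, 1267 and 1537.5 at 3 months and 2946, 2833, 3255, 2898 and 3667 at 8 months. The groups were apart, with a difference of 1.19 (SE 0.19, adjusted p = 0.0054). With the hepatocyte score as a covariate it was 0.47 (adjusted p = 0.548). Pecam1 (CD31) rose by 0.62 (SE 0.11, adjusted p = 0.00876), and Cldn5, Egfl7, Esam and Flt1 were the others, Egfl7 with 1 of 4 probe sets and Flt1 with 1 of 3. Myh11, the smooth muscle myosin, rose by 0.62 (SE 0.13, adjusted p = 0.0224) and was the only 1 of 9 smooth muscle and pericyte markers called. Cnp, Mbp and Pmp22, genes of myelinating Schwann cells, were the 3 called of 6, with Cnp at 0.74 (SE 0.12, adjusted p = 0.00556) and Mbp at 0.73 (SE 0.15, adjusted p = 0.0195).

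Fat genes rose in part. Of 9 adipocyte markers 3 were higher (Adipoq, Fabp4 and Retn), with a median of 0.53, against 4.1% of all genes called higher. Adipoq (adiponectin) read 6759, 5661, 9799, 6531 and 11477 at 3 months and 18205, 19784, 19436, 9868 and 19642 at 8 months. The ages overlapped through 8-month replicate 4, and the difference was 1.11 (SE 0.24, adjusted p = 0.0229), called in 5 of the 10 fits that left out 1 array. Retn (resistin) rose by 1.30 (SE 0.27, adjusted p = 0.0196) and was called in 7 of those 10. In both genes 3-month replicates 3 and 5, which had the lowest hepatocyte scores of their age, were the brightest at 3 months. With the hepatocyte score as a covariate Retn differed by 0.14 (adjusted p = 0.91). Fabp4 passed with 1 of 4 probe sets. Fasn, the fatty acid synthase, read 1331, 856, 743, 932 and 1363 at 3 months and 2288, 2953, 7287, 3633 and 5920 at 8 months (1.94, SE 0.29, adjusted p = 0.00413), and was the only 1 of 12 genes of fatty acid and triglyceride synthesis called. Of 20 tested genes of fatty acid uptake and oxidation, Cd36, Lpl and Fabp4 were higher and the median was 0.11. Lpl ran from 3812 to 6770 at 3 months and from 6748 to 8670 at 8 months, so its ages overlapped. It was called in 3 of the 10 fits that left out 1 array, and its call was lost without the dim filter. Cd36, a fatty acid transporter, rose by 0.55 (SE 0.11, adjusted p = 0.0191).

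Genes of the contractile fibres held no call. None of 18 fast fibre genes and none of 16 slow fibre genes passed, with medians of 0.05 and 0.29. The fast fibre genes lay between -0.09 and 0.32. Their mean log2 level was 16.42 in 3-month replicate 2. It was 14.84 to 15.25 in the other 3-month arrays and 15.15 to 15.59 at 8 months. That replicate lowers the difference of the fast fibre genes and widens its error. The absence of calls therefore does not show that the fast fibre genes were unchanged. By limma's unadjusted p, 1 of the fast and 3 of the slow fibre genes were under 0.05. Myh7, the slow myosin heavy chain, read 3581, 2112, 1675, 3166 and 4903 at 3 months and 4158, 3373, 3649, 5461 and 4155 at 8 months, and the groups overlapped (0.50, SE 0.25, not called). Sln (sarcolipin), an inhibitor of the calcium pump, had the lowest value of the slow fibre genes, -1.21 (SE 0.35), and did not pass. With the hepatocyte score as a covariate the median of the fast fibre genes was 1.14 and that of the slow fibre genes -0.16, so neither has a settled size here.

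Energy metabolism held few calls. Of 61 tested oxidative phosphorylation genes none was called and the median was 0.17, beside 0.13 for all genes. None of 20 citric acid cycle genes, 20 glycogen metabolism genes, 13 genes of mitochondrial regulation and uncoupling or 4 AMPK subunits passed by limma. Unadjusted p was under 0.05 for 7 of the oxidative phosphorylation genes, 2 of the citric acid cycle genes, 6 of the glycogen genes, 2 of the mitochondrial regulators and 1 AMPK subunit. Of 21 genes of glucose uptake and glycolysis, Slc2a3 alone passed. Slc2a3, the glucose transporter GLUT3, read 799.5, 843.5, 792, 1062 and 926 at 3 months and 520, 554, 390, 456 and 573 at 8 months. It fell by 0.77 (SE 0.13, adjusted p = 0.00876) without overlap. Gys1, the enzyme the series manipulated, was read by 2 probe sets, neither of which was called in wild-type muscle. The brighter went from 5033 ± 948 to 6285 ± 553 (SD, n = 5 each; 0.33, SE 0.14, adjusted p = 0.211). The dimmer differed by -0.47 (SE 0.51, adjusted p = 0.646) through 8-month replicate 5, which read 289 while the other 4 read 2036 to 3332. In the knockout arrays the brighter probe set was at 96.7 ± 59.3 (SD, n = 3) and in GSL30 arrays at 9115 ± 935 (SD, n = 5).

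The 10 largest falls among called genes whose ages did not overlap shared no list. Myod1, the myogenic transcription factor of satellite cells and fast fibres, was called lower but was not among those 10. It read 1152, 863, 950, 766 and 1412 at 3 months and 583, 536, 570, 631 and 469 at 8 months. It fell by 0.80 (SE 0.16, adjusted p = 0.0188) without overlap, and was called in 9 of the 10 fits that left out 1 array, the exception being that without 3-month replicate 1. It was the only 1 of 17 skeletal muscle markers called. Luc7l2, a factor of the U1 splicing particle, read 1291, 759, 1298, 809 and 1497 at 3 months and 324, 542, 141, 468 and 117 at 8 months (-1.81, SE 0.35, adjusted p = 0.0142). Qrich1 fell by 1.34 (SE 0.29, adjusted p = 0.0259) and was called in 5 of the 10 fits that left out 1 array. None of the 24 tested splicing and RNA-binding proteins, a list that holds neither Luc7l2 nor Qrich1, was called by limma, and 1 had an unadjusted p under 0.05. Alas1, the first enzyme of heme synthesis, went from 681 ± 239 to 310.5 ± 29.6 (SD, n = 5 each; -0.96, SE 0.21, adjusted p = 0.0266), and Prdx2, a peroxiredoxin, fell by 1.0 (SE 0.23, adjusted p = 0.0343). Alas1 and Prdx2 were each called in 3 of the 10 fits that left out 1 array. Bace1, a membrane protease, fell by 0.98 (SE 0.19, adjusted p = 0.0154), and like Luc7l2 and Slc2a3 was called in all 10. Tmem267 fell by 1.22 (SE 0.28, adjusted p = 0.0322), Yipf5 by 1.13 (SE 0.26, adjusted p = 0.0316) and Smim10l1 by 1.0 (SE 0.21, adjusted p = 0.0222). They were called in 4, 4 and 7 of those 10 fits. The 8-month means of Bace1, at 211.3, and Yipf5, at 210.9, lay under the dim filter's limit of 254. Both thus passed through their 3-month level. Without that filter the calls of Qrich1, Alas1, Prdx2, Tmem267 and Yipf5 were lost, and that of Bace1 held.

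Kap, the kidney androgen-regulated protein, had the largest fall, and was brightest in the arrays of highest hepatocyte score. It read 4951, 10165, 1377, 11893 and 1299 in 3-month replicates 1 to 5, where the hepatocyte scores were 14.04, 15.77, 12.89, 14.85 and 11.80. At 8 months it read 693, 652, 561, 488 and 538. The difference was -2.70 (SE 0.55, adjusted p = 0.0195), and with the hepatocyte score as a covariate it was 0.46 (adjusted p = 0.767). The transcript was not bright in wild-type liver, at a mean of 434, beside 586 in tibialis, which is why it passed the liver filter. BC023105 was likewise highest in 3-month replicates 2 and 4, at 4560 and 5722, and fell by 1.36 (SE 0.32, adjusted p = 0.0377). It was called in 3 of the 10 fits that left out 1 array, and its call was lost without the dim filter. With the hepatocyte score as a covariate BC023105 differed by -0.26 (adjusted p = 0.875).

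Pdxdc1, a decarboxylase domain protein, had the largest rise of all and gave opposite calls with its probe sets. One read 140, 320, 73.2, 52.5 and 218 at 3 months and 1351, 1298, 1505, 1528 and 1730 at 8 months. The arrays of each age lay far apart, with a difference of 3.02 (SE 0.29, adjusted p = 0.000231). The 3-month mean of 161 lay under the limit of the dim filter, so this probe set passed through its 8-month level. Its call held without that filter. Another called probe set of the gene had a difference of -0.66, and Pdxdc1 was the only 1 gene called in both directions. Probe sets of a gene can read different transcript ends, and of 126 called genes that had more than 1 tested probe set, 107 passed with some and not with others.

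**Figure D5:**
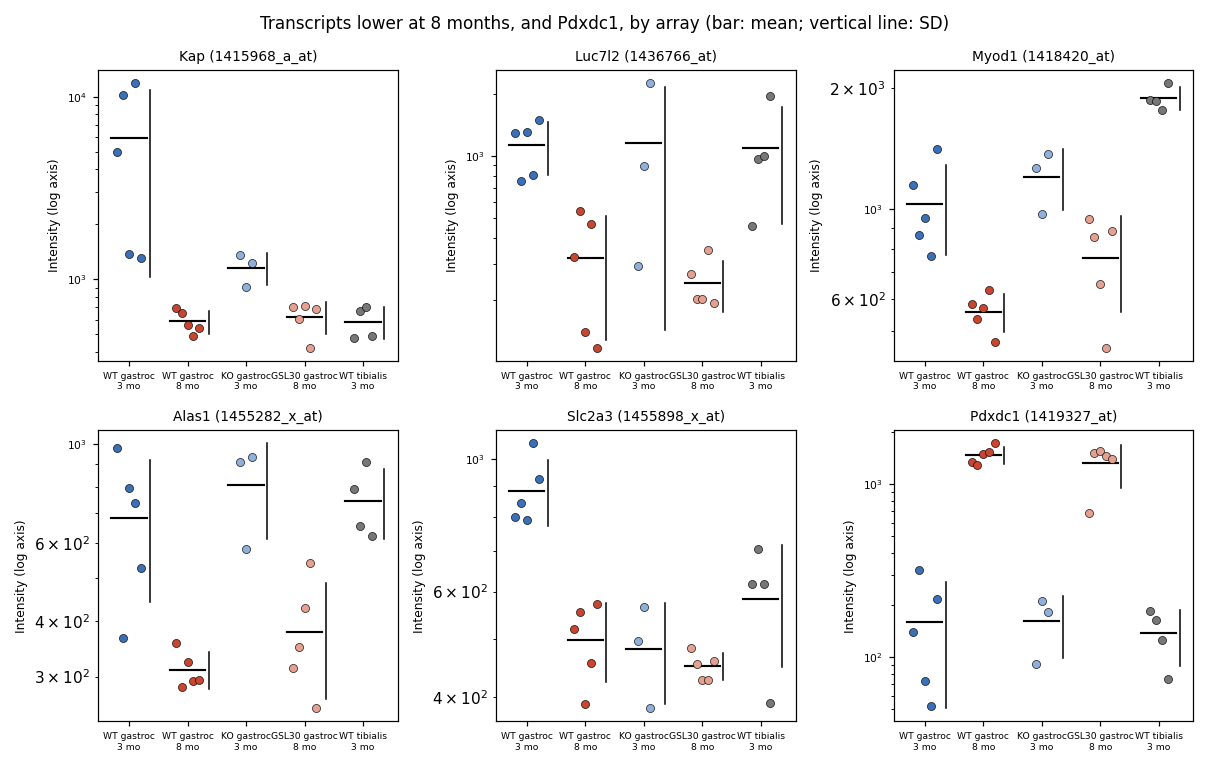
Intensity on a log axis of Kap, Luc7l2, Myod1, Alas1 and Slc2a3, which were lower at 8 months in wild-type gastrocnemius, and of the rising probe set of Pdxdc1, with bars at the mean and vertical lines for the SD. Kap spans 1299 to 11893 in the 3-month wild-type arrays and 488 to 693 in the 8-month wild-type arrays.

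Stress and signalling genes gave scattered calls. Of 20 immediate early and stress response genes 3 were higher, with a median of 0.27, against 4.1% of all genes called higher. Btg2, an antiproliferative early gene, read 1823, 1823, 2118.5, 1570 and 2107 at 3 months and 3388.5, 4091, 4216, 8988 and 5528 at 8 months (1.37, SE 0.22, adjusted p = 0.00622). Maff, a small Maf transcription factor, rose by 1.91 (SE 0.34, adjusted p = 0.0104), and Ier2 was the other. With the hepatocyte score as a covariate Maff differed by 0.58 (adjusted p = 0.686). Vcam1, an adhesion molecule of satellite cells and vessels, rose by 1.39 (SE 0.19, adjusted p = 0.00217) and was 1 of 2 satellite cell markers called of 9 tested. The other was Cxcr4, a chemokine receptor that leukocytes also carry, at 0.63 (SE 0.14, adjusted p = 0.0264). The 3-month means of Maff, Vcam1 and Cxcr4 lay under the limit of the dim filter, so these genes passed through their 8-month level. The call of Cxcr4 was lost without that filter and held in 3 of the 6 fits leaving out 1 array that tested it. Sod3, the extracellular superoxide dismutase, rose by 1.17 (SE 0.22, adjusted p = 0.0132), and differed by 0.15 (adjusted p = 0.869) with the hepatocyte score as a covariate. Pik3cd, the leukocyte-rich catalytic subunit of PI3 kinase, rose by 0.85 (SE 0.13, adjusted p = 0.00421) and was the only 1 of 11 insulin signalling genes called. Among 15 imprinted growth genes Nnat alone was called (1.16, SE 0.28, adjusted p = 0.0391), in just 1 of the 10 fits that left out 1 array. No circadian gene of 16, no cell cycle gene of 10 and no heat shock gene of 13 passed by limma, with 3, 3 and 4 at an unadjusted p under 0.05. Ribosomal proteins and proteasome subunits had medians of 0.26 and 0.04, with 1 of 31 and 1 of 32 called higher, a share no larger than the 4.1% of all genes. These were Rps10 at 0.45 and Psmd13 at 0.48, called in 1 and 2 of the 10 fits that left out 1 array.

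The other gastrocnemius arrays of the same ages and array codes are separate arrays, of GSL30 mice at 8 months and knockout mice at 3 months, so their difference holds genotype besides age. Of the 400 called probe sets 323 had the same sign there (80.8%, against 58.8% of all tested). The 365 called higher included 149 whose GSL30 arrays all lay above the knockout arrays, against 12.6% of all tested, and the 35 called lower included 14 on the lower side, against 10.7%. The hepatocyte score also differed there, at 11.62 to 13.55 in knockout and 7.88 to 8.93 in GSL30 arrays. All 6 T and B cell markers were positive there (median 1.10). Of 16 collagens 13 were positive and 3 negative (median 0.38), and 9 had every GSL30 array above and 2 every GSL30 array below the knockout arrays. Of all 7285 genes 4261 were positive in that pair. Ptprc was 647 ± 224.5 in knockout (SD, n = 3) and 2159 ± 845 in GSL30 arrays (SD, n = 5), a difference of 1.64 (SE 0.30), and Col1a2 differed by 1.15 (SE 0.15), H2-Aa by 1.97 (SE 0.29) and Pdxdc1 by 2.69 (SE 0.29). Among lower genes Qrich1 differed by -2.02 (SE 0.37), Alas1 by -1.01 (SE 0.23) and Myod1 by -0.66 (SE 0.23).

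All 13 endothelial markers were negative in GSL30 against knockout arrays (median -0.56), and 8 of them had every GSL30 array below every knockout array. Over all 7285 genes tested the median there was 0.07. Of these genes 3024 were negative and 785 had every GSL30 array below every knockout array. Smooth muscle and pericyte markers were negative in 6 of 9. Of the 9, 6 had every GSL30 array below the knockout arrays and 2 had every GSL30 array above them. Schwann cell and nerve markers were negative in 4 of 6, and 3 had every GSL30 array below the knockout arrays. Cdh5 differed by -0.75 (SE 0.16), Pecam1 by -0.67 (SE 0.18), Myh11 by -1.35 (SE 0.14), Mbp by -0.81 (SE 0.20) and Cd36 by -0.64 (SE 0.14), each with the opposite sign in wild type, while Cnp differed by 0.17 (SE 0.18). Slow fibre genes had a median of -1.41 there against 0.29 in wild type. Fasn (0.21, SE 0.28), Stk10 (0.02, SE 0.52), Adipoq (-0.09, SE 0.22) and Slc2a3 (-0.07, SE 0.14) were near 0 in that pair. Whether these differences between the pairs exceed their spread was not tested.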

How the data were processed

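The authors' deposited intensities, on a linear scale, were used as they stood. Trimmed means of 1000.3 to 1000.5 in every array, read from the values, show that each array had been scaled to about 1000. Per the labels' protocols, RNA was extracted with TRIzol and RNeasy and targets followed the usual Affymetrix procedure. Probe summary software was not given in the sources used here. Depth is not a property of these arrays, and their number, 5 per age, limits the precision.

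Of 22690 probe sets, 64 controls, 2856 over 2-fold brighter (mean log2) in liver than in tibialis of wild-type mice, and those under the 40th percentile of mean log2 over the 10 arrays were left out, which left 11669. Log2(intensity + 50) was fitted over the 10 arrays with no covariate by lmFit and eBayes of limma 3.58.1 under R 4.3.3, with data.table (version 1.17.8) for reading and matplotlib 3.10.9 for the plots. A fold change is on that scale, which understates changes of dim transcripts. Symbols came from the platform annotation (20393 probe sets with 1 gene, 691 with several, 1606 with none), updated by gene ID to RefSeq GRCm38.p6. Of the called probe sets, 37 had no single symbol and are not named.

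Genes named were the 10 largest rises and 10 largest falls among called genes whose groups did not overlap, up to 2 called genes of each list by smallest p, and Gys1. Of the genes so chosen, Atf4, Npc2, Sfrp2, Ccn3 and Eif4g2 are not described, and Agrn only among the flagged results. Other members of lists are named with their lists, after their values were seen. A list's median uses the brightest tested probe set of each gene, its counts any tested probe set. The comparison, the 55 gene lists, written from textbook knowledge, and the rules were chosen with earlier results of these data known. The fit was tested on simulated data. Alternatives were pseudocounts of 1 and 200, a common median, quantile normalization, other filters, the hepatocyte score as a covariate, arrays of high score left out, trended and robust eBayes, array weights, all 34 arrays in 1 fit, 1 probe set per gene, and each array left out.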

Additional observations from a re-analysis of the deposited data

Results flagged for a closer look

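In 10 of 118 groups of 5 wild-type arrays, examined for the probe sets of the named genes and for the hepatocyte score, 1 array stood far from the other 4, by the gap to the nearest array divided by the range of the group (limit 0.71). Chance alone gives about 5% of such groups. At 8 months, Adipoq (0.88, intensity 9868) and Retn (0.851, 2625) were low in replicate 4, Agrn was low (0.849, 435) and Coro1a high (0.728, 3007) in replicate 3, Stk10 was low in replicate 2 (0.796, 225), and Gys1 (0.79, 289, the dimmer probe set) and Prdx2 (0.738, 211.5) were low in replicate 5. At 3 months, Qrich1 was low (0.869, 1460) and Cd79b high (0.759, 321) in replicate 2, and Ctss was low in replicate 3 (0.761, 976).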

How the results depend on the processing

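The count of 400 called probe sets (365 higher, 35 lower) lay between 322 and 485 under both other scalings, both pseudocounts, the dim filters, the stricter liver filter, trended and robust eBayes and 1 probe set per gene, although that last setting gave 22 lower. It came to 840 with liver-bright probe sets kept (351 lower), 870 with array weights (684 higher, 186 lower) and 1062 with all 34 arrays in 1 fit (938 higher, 124 lower). With the hepatocyte score as a covariate it was 1 (1 higher, 0 lower), without the arrays of high score 14 (13 higher, 1 lower), and, in a setting chosen after seeing the data, without only those at 3 months 52 (50 higher, 2 lower). Leaving out 1 array gave 185 to 512 called, 171 to 435 higher and 10 to 77 lower. Of the 56 named calls, 31 held in each of those 10 fits, 0 with the covariate and 5 without the arrays of high score (Pdxdc1, Cd209b, Cklf, Stk10 and H2-Aa). Signs turned for Kap (0.46) and the brighter Gys1 probe set (-0.19) with the covariate, and for the dimmer Gys1 probe set without 8-month replicate 5 (-0.69 to 0.14 over the fits that left out 1 array). The hepatocyte score does not overlap between the ages, so the covariate fit has little range in which to separate them, and the cause of the other shifts was not tested. Over the settings the list medians ran from 1.38 to 1.95 for T and B cell markers and from 0.52 to 0.95 for collagens. No paired analysis was possible because the replicate numbers were given in accession order and pair no samples.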

Other observations

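Other called genes, named here after their values were seen, fell into groups that the lists did not hold. Regulators and receptors of B cells rose at 8 months, with Spib at 1.38 (SE 0.18, limma adjusted p = 0.00167), Irf8, which myeloid cells also use, at 1.36 (SE 0.14, adjusted p = 0.000344), Fcer2a (CD23) at 1.19 (SE 0.17, adjusted p = 0.00334), Cd22 at 0.82 and Blk at 0.73. Il7r, the interleukin 7 receptor of T cells and lymphoid progenitors, rose by 1.45 (SE 0.20, adjusted p = 0.0027). The lymphocyte GTPases Gimap6, Gimap4 and Gimap1 rose by 1.52, 1.08 and 1.03, and Rac2, a GTPase of blood cells, by 1.51 (SE 0.15, adjusted p = 0.000284). Thy1, carried by T cells and by fibroblasts, rose by 1.19 (SE 0.15, adjusted p = 0.0013). Mast cell proteases were higher too, with Tpsab1 at 1.10 (SE 0.23, adjusted p = 0.0218), Mcpt4 at 0.78 and Cpa3 at 0.73. Among chemokines Ccl8 rose by 1.06, Cxcl14 by 1.06, Cxcl16 by 0.68 and Cxcl13, which draws B cells into follicles, by 0.67. Having been picked from the called genes, these are a description and no test of those groups. Ltb (lymphotoxin beta) was not among the 400 calls and was called at 3.65 (SE 0.42, adjusted p = 0.0386) when the arrays of high hepatocyte score were left out.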
